A study of Arabidopsis thaliana with 48 samples.

Results

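The flavonoid and anthocyanin pathway enzymes are described here through 10 genes of *Arabidopsis thaliana*. They were chosen by name and locus identifier from the 32833 genes of the normalised count table, with earlier results of these data known. Of the 10 genes, 5 act early in the pathway. They are CHS (AT5G13930, chalcone synthase), CHI (AT3G55120, chalcone isomerase), F3H (AT3G51240, flavanone 3-hydroxylase), F3'H (AT5G07990, flavonoid 3'-hydroxylase) and FLS1 (AT5G08640, flavonol synthase). The other 5 act late, on the way to anthocyanins. They are DFR (AT5G42800, dihydroflavonol reductase), LDOX (AT4G22880, leucoanthocyanidin dioxygenase), UGT79B1 (AT5G54060) and UGT75C1 (AT4G14090), which put sugars on anthocyanins, and TT19 (AT5G17220), a glutathione transferase needed to bring anthocyanins into the vacuole.

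Flavonoids are made from phenylalanine through the phenylpropanoid pathway. CHS joins a phenylpropanoid unit to malonyl units, CHI closes the ring, and F3H and F3'H add hydroxyl groups. The resulting dihydroflavonols can be turned by FLS1 into flavonols, which absorb ultraviolet light, or be reduced by DFR and passed on to LDOX and the sugar transferases to give red and purple anthocyanins. In Arabidopsis seedlings the early genes are known to be driven by light and by MYB factors of the flavonol branch, and the late genes by a complex of MYB, bHLH and WD40 proteins.

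RNA of wild-type Col-0 seedlings, the one genotype used here, was sequenced in a control and in the 15 treatments formed by Salt, PQ, HL, HS and all their combinations, with 3 libraries in each of the 16 groups and 48 in all. Salt was 50 mM NaCl and PQ was 0.05 µM of the herbicide paraquat, both present in the agar on which the seeds germinated. HL was light of 700 instead of 50 µmol m-2 s-1 and HS was 33 instead of 21°C, each given for 1.5 h to seedlings which the labels put at 10 days from germination. Whole seedlings were pooled for each sample, so fewer cells of a type and less RNA per cell cannot be told apart.

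Between 67888254 and 87569857 reads per library fell on genes (median 76882710). Shoot and root marker genes, summed by list, were present in every library. The sums were 908896 to 1410800 normalised counts for 4 shoot genes and 50073 to 265279 for 4 root genes. The root gene NRT2.1 ranged from 0 to 26.3, with a mean of 4.40, too low to be tested. Values in the text are normalised counts, which are reads divided by 1 size factor per library. A gene was called when the adjusted p of limma, a linear model fitted to the log2 values of all genes, was under 0.05. The share of all 21536 tested genes called in the same direction is printed beside each count of members. A limit of 3 reads corresponds to 2.23 to 5.05 normalised counts, depending on the library, and covers counting error only.

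In many groups the stress marker genes went against the labels. The groups below are those of the labels, and nothing was reassigned. ELIP1, a chloroplast protein gene induced by strong light, averaged 566 ± 34.6 normalised counts in control libraries (SD, n = 3) and 31270 ± 1205 in those labelled HL. Of the 8 treatments whose label holds HL, 5 had an ELIP1 mean under 10 times that of the control, namely Salt + HL, PQ + HL, Salt + PQ + HL, PQ + HL + HS and Salt + PQ + HL + HS. Of the 7 whose label lacks HL, 5 were above that limit, namely Salt, PQ, Salt + PQ, PQ + HS and Salt + PQ + HS. HSP101, a heat-induced chaperone gene, stood at 1098 ± 39.7 in the control. It stood at 1130 ± 40.3 (PQ + HL + HS) and 1138 ± 90.4 (Salt + PQ + HL + HS) under labels that include HS, and at 155731 ± 4192 in PQ, which carries no HS label. In 6 of the 7 treatments without HS in the label it was over 10 times the control. Taking ELIP1 for every treatment and HSP101 for those labelled HS, the markers matched the labels in 5 treatments, namely HL, HS, Salt + HS, HL + HS and Salt + HL + HS. HSP101 in HL, 65.8 times its control mean, did not enter this match, nor did other markers. ELIP2, a second light marker, averaged 1342 in the control, 11927 in HL, 996 in HL + HS and 2048 in Salt + HL + HS. Both salt markers and both paraquat markers were called higher in HL, whose label holds neither stress. Whether samples changed places was not tested.

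**Figure D1:**
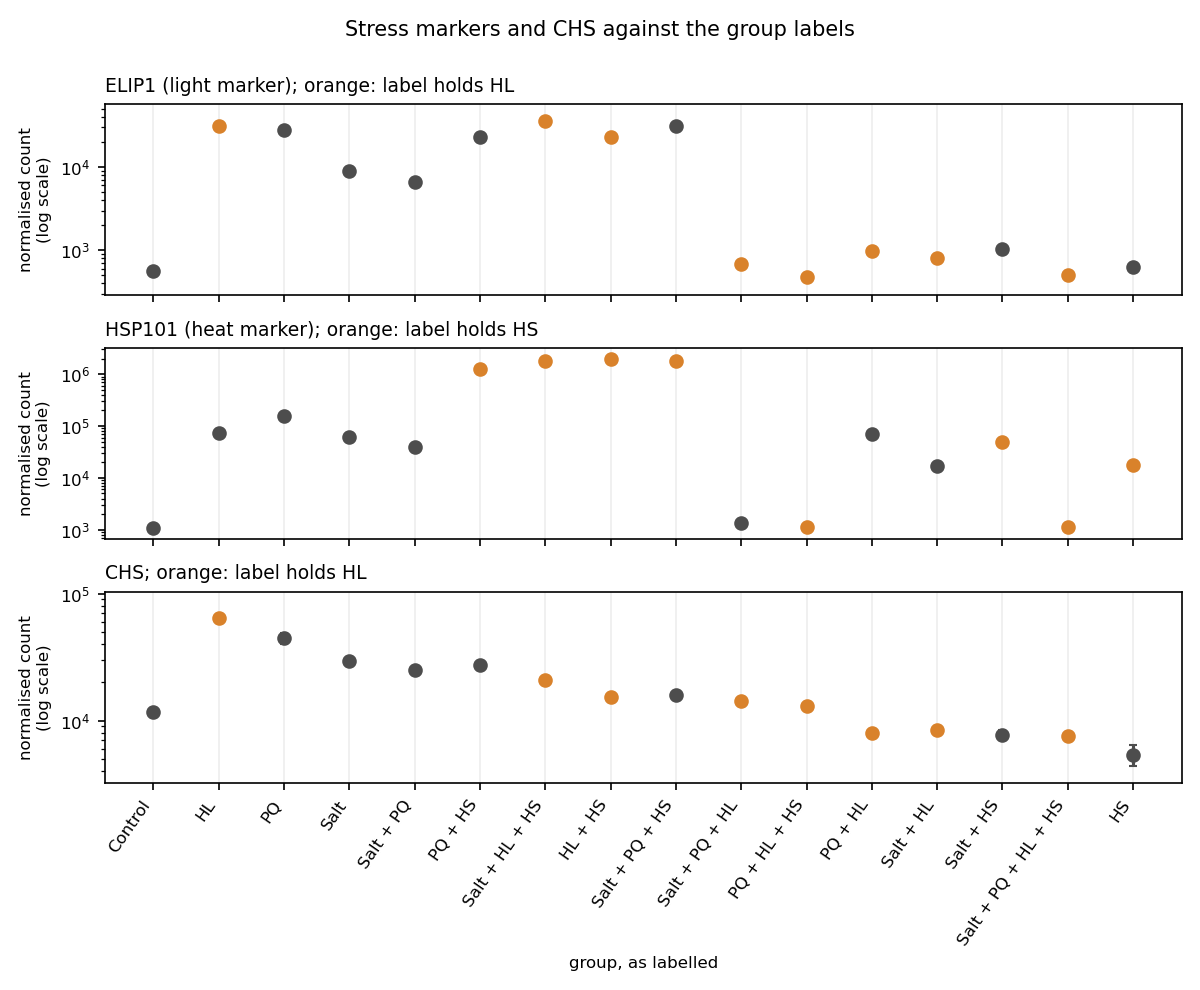
Mean normalised counts on a log scale of ELIP1, HSP101 and CHS (3 panels, n = 3 libraries, bars are the SD) in the 16 groups as labelled, with orange points where the label holds the stress of the panel. ELIP1 is over 10 times its control level in 5 groups without HL in the label and under it in 5 groups with HL. CHS lies above its control mean in all 8 treatments with high ELIP1, a direction that turns in HL + HS and Salt + PQ + HS when libraries are scaled to the same total.

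All 10 genes were found in the RefSeq annotation of build TAIR10.1, on chromosomes 3, 4 and 5. The 250 bases before the annotated start of 4 of them are shown, since the results turn on the contrast of CHS and FLS1 with DFR and UGT79B1. Capitals mark the G-box CACGTG, a motif bound by bZIP and bHLH factors, searched for on both strands. The windows are chr5:4488226-4488475 on the plus strand (CHS), chr5:2803583-2803832 on the plus strand (FLS1), chr5:17166033-17166282 on the minus strand (DFR) and chr5:21938397-21938646 on the minus strand (UGT79B1), each written 5′ to 3′ towards the gene.
CHS: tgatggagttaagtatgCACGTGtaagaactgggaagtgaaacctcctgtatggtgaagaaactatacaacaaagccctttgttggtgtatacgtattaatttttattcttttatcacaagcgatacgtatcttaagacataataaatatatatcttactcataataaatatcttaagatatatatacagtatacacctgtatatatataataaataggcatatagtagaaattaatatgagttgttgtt
FLS1: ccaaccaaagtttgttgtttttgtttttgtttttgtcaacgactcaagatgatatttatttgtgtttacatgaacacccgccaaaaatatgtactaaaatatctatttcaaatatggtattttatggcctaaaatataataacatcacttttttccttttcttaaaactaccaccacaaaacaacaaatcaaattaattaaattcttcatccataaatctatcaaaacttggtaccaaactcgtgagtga
DFR: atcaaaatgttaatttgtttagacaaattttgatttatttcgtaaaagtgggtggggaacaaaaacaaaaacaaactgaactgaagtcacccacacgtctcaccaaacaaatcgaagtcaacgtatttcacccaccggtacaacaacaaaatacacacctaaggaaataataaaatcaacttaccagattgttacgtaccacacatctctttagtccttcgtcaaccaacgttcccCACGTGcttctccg
UGT79B1: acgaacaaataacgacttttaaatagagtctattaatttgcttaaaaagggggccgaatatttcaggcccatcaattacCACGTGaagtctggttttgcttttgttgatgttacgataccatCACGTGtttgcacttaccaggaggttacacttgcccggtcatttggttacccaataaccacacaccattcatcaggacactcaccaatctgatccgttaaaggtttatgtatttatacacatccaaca

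A G-box lay in the window of 4 of the 10 genes, 2 early (CHS at -233 and F3H at -249 from the start) and 2 late (DFR at -14, and UGT79B1 at -171 and -128), against 6.49% of 27443 windows of the same length. The E-box CANNTG, which includes the G-box, was in 7 of the 10 windows and in 55.3% of all. Of the MYB motifs of phenylpropanoid genes, ACCTACC was in none of the 10 and in 1.16% of all, and ACCAACC was in that of UGT75C1 alone and in 2.69% of all. The pattern GAANNTTC of adjoining heat shock units was in the window of TT19 alone, against 9.55% of all. A match, or its absence, describes these letters only.

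The annotation limits what can be said of some members. F3H shared 1415 of its 1508 exon bases with AT3G51238, a long non-coding RNA on the opposite strand, which left 93 unshared bases. UGT75C1 shared 27.1% of its exon bases with AT4G14100 and AT4G06175, and TT19 shared 9.85% with PSY, a carotenoid synthesis gene with a mean of 21028.5 normalised counts. The use of strand in the counting is not given in the sources used here, so reads in shared stretches cannot be assigned with certainty. For DFR, LDOX and UGT79B1, 95.5%, 93.3% and 92.2% of the 31-base words of their exons occurred once in the genome, and 100% for the others.

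The members differed widely in level. Per kilobase of exon, the control libraries gave means of 6823 normalised counts for CHS, 1918 for FLS1, 1477 for CHI and 290.2 for F3'H. On the same scale the late genes lay between 126 for UGT79B1 and 341 for DFR, with LDOX at 276, TT19 at 317 and UGT75C1 at 168. F3H stood at 3.01 over its 1508 exon bases, far below its neighbours in the pathway. Of these bases 1415 are shared with AT3G51238, which itself averaged 0.083 normalised counts. How reads in the shared stretch were counted is not known, so 3.01 may understate F3H. The mean of F3H over all libraries, 5.26 normalised counts, was under the minimum of 10, so 9 of the 10 members were tested.

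Every member had its highest group mean in the libraries labelled HL. CHS, the entry enzyme, had 10713, 11459 and 12688 normalised counts in the control and 62747, 63406 and 67290.1 in HL. FLS1, which makes flavonols, had 3128, 3049 and 3134 in the control and 20651, 19123 and 20729.5 in HL. The groups did not overlap for either gene. CHI had 1696, 1563 and 1668 normalised counts in the control and 8208, 7239.6 and 7873 in HL. F3'H, which sets the hydroxylation of the B ring, had 503, 603 and 573 in the control and 3360.3, 3085 and 3540.2 in HL, again without overlap.

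The late genes moved the same way by less. DFR, at the start of the anthocyanin branch, had 525, 506 and 525 normalised counts in the control and 887, 865 and 1146 in HL. TT19 had 375, 311 and 356 in the control and 1014, 1032 and 1082 in HL, the largest change among the late genes. LDOX, the step after DFR, had 369, 386 and 404 in the control and 827, 766 and 1033 in HL. The sugar transferases changed too. UGT79B1 had 218, 209.9 and 194 normalised counts in the control and 444, 436 and 562 in HL, and UGT75C1 had 263, 275 and 293 and 382, 369 and 438. In none of the 5 late genes did the libraries of the control and of HL overlap. Such separation was not counted over all genes, of which 38.5% were called higher and 37.5% lower in HL.

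All 9 tested members were called higher in HL, where 38.5% of all tested genes were higher and 37.5% lower. The log2 fold change of the 4 early genes ranged from 2.24 for CHI to 2.70 for FLS1 (standard error 0.081, limma adjusted p = 2.57e-30), a 6.49-fold difference for FLS1. The 5 heat markers were called higher too in these libraries, whose label holds no HS, with a median log2 fold change of 8.43 and HSP101 at 65.8 times its control mean, and their part in the result was not tested. In the 5 late members the log2 fold change ranged from 0.51 for UGT75C1 to 1.59 for TT19 (standard error 0.16, limma adjusted p = 9.47e-12), or 3.01-fold for TT19. The change of UGT79B1 of 1.20 (standard error 0.47) had a limma adjusted p of 0.0208, which became 0.0511 without Control replicate 3 and 0.0521 without replicate 2 of the treatments. F3H, with 4.79, 4.05 and 4.78 normalised counts in the control, had 23.0, 36.3 and 18.6 in HL, so its HL libraries lay above all those of the control.

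**Figure D2:**
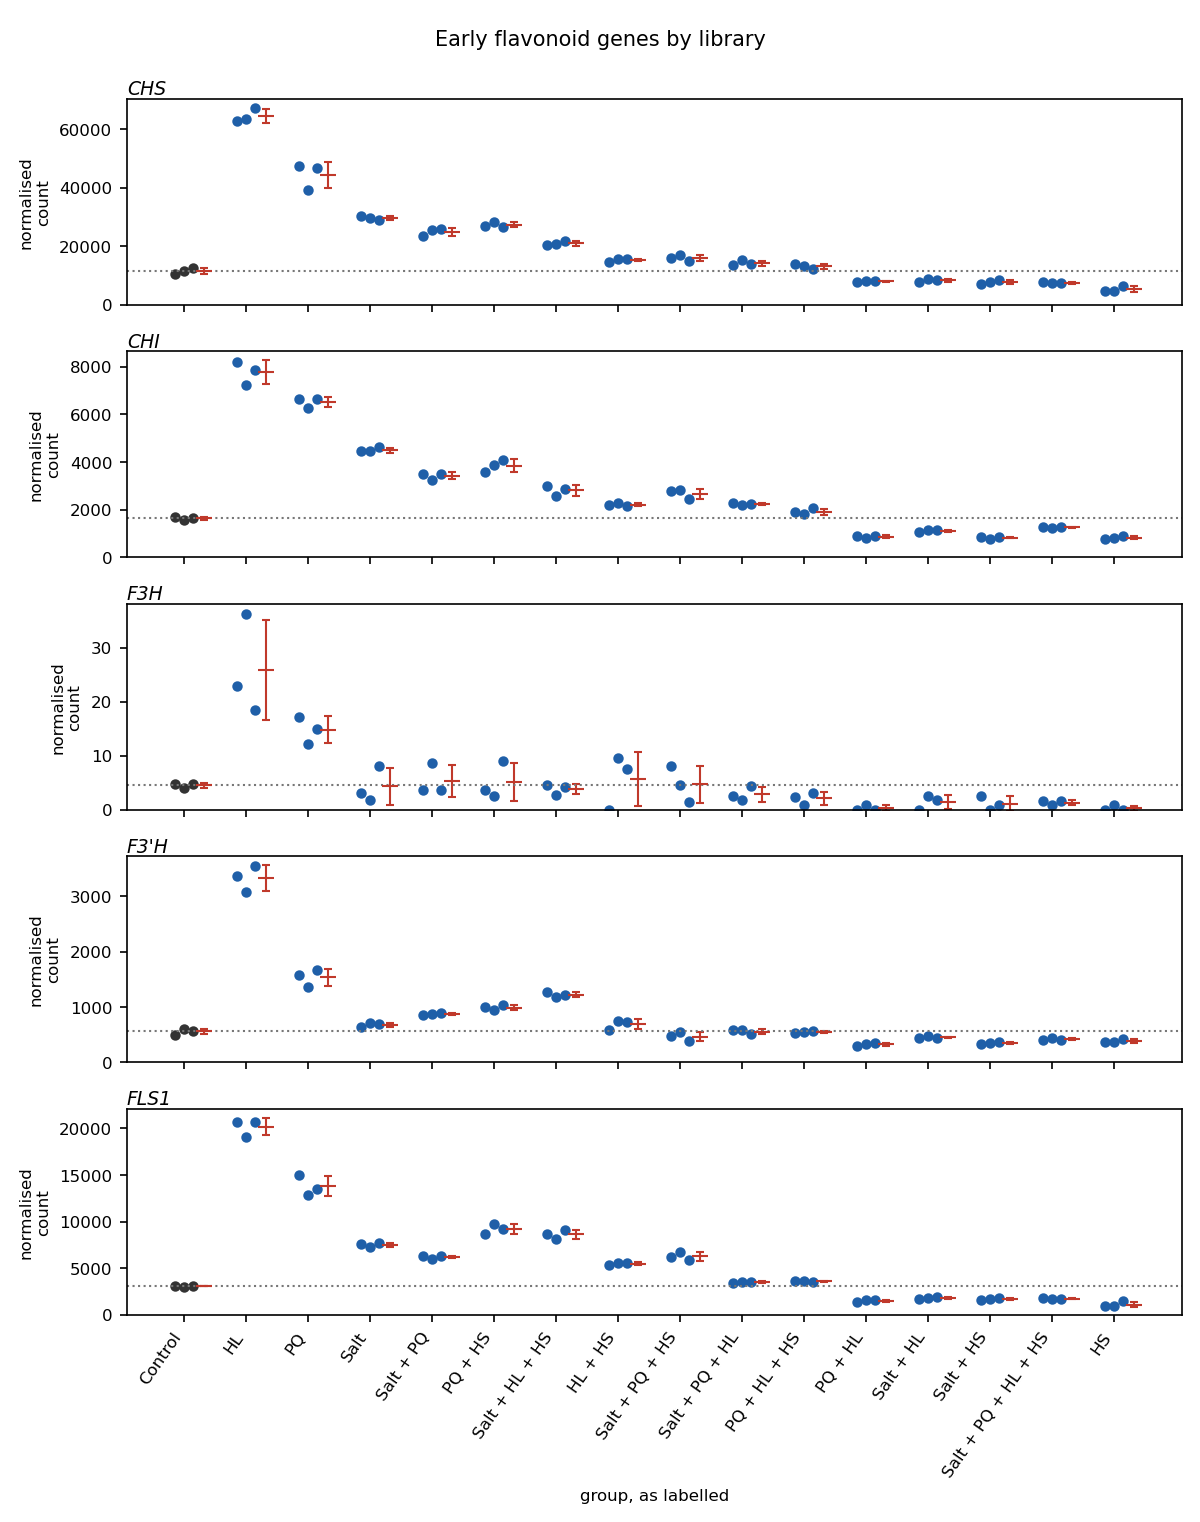
Normalised counts of the 5 early genes in each of the 48 libraries (points), with the mean and SD of each group (red, n = 3) and the control mean as a dotted line. All 5 genes are highest in HL. CHS, CHI and FLS1 have means above the control in the next 7 groups drawn, a direction that turns under equal library totals for all 3 in HL + HS, for CHS and CHI in Salt + PQ + HS and for CHI in Salt + HL + HS.

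**Figure D3:**
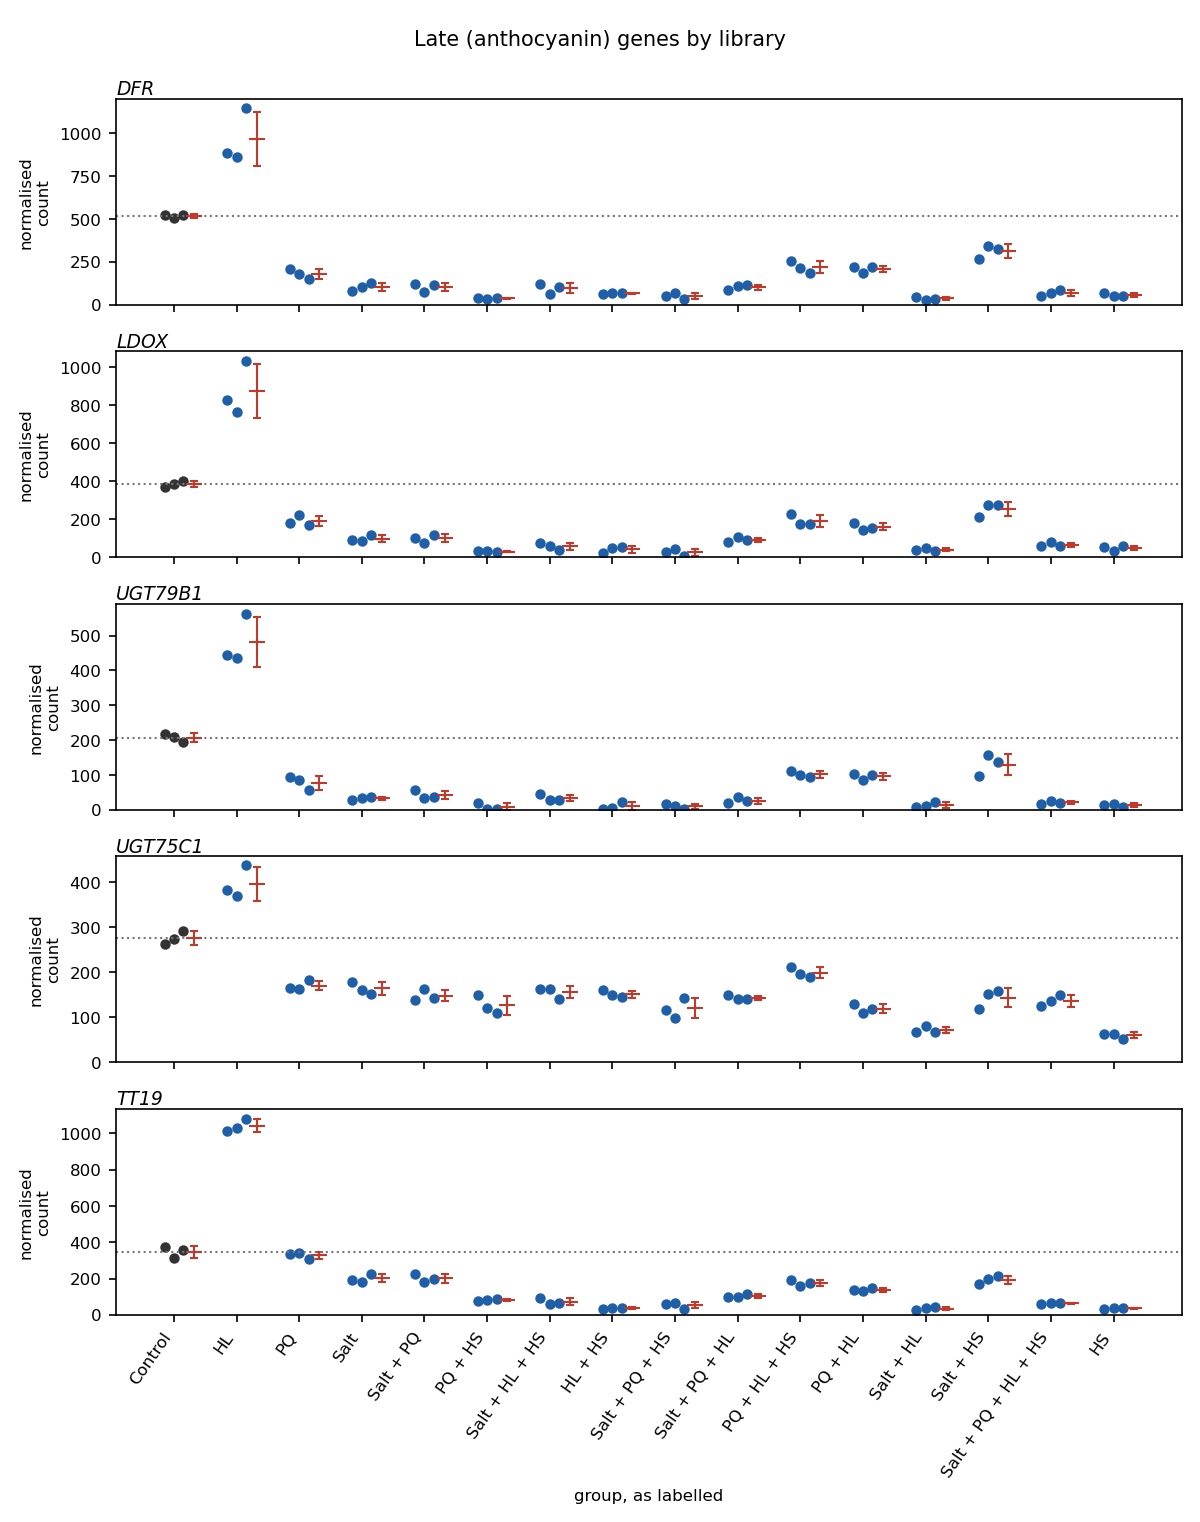
Normalised counts of the 5 late genes in each of the 48 libraries (points), with the mean and SD of each group (red, n = 3) and the control mean as a dotted line. The means of HL lie above the control line in all 5 genes, and the means of the other 14 treatments lie below it.

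The direction of a call depends on the scaling of the libraries in part. With the authors' size factors the median log2 fold change of all tested genes lay between -0.015 and 0.011 in every treatment, and with quantile normalization between -0.14 and 0.004. When every library was scaled to the same total, it was -0.66 (PQ + HS), -0.79 (Salt + PQ + HS), -0.84 (Salt + HL + HS) and -0.87 (HL + HS), and between -0.29 and 0.015 in the other 11. The share of called genes that were higher then moved from 50.02 to 20.76% (PQ + HS), from 49.87 to 17.09% (Salt + PQ + HS), from 49.93 to 15.89% (Salt + HL + HS) and from 49.73 to 15.49% (HL + HS). It moved from 50.71 to 30.63% in PQ, from 50.62 to 33.49% in HL, from 51.12 to 36.26% in Salt + PQ and from 50.89 to 37.05% in Salt. It moved from 51.08 to 37.77% in PQ + HL, from 51.27 to 38.26% in Salt + HS and from 52.11 to 42.05% in HS. All 9 members remained called higher in HL with each scaling.

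The root markers were low in some of the treatments described next. The 4 root genes summed to 181065 to 191564 normalised counts in the control, and to 50073 to 50768 in HL + HS, 62780.5 to 74621 in Salt + HL + HS and 66824 to 69509 in PQ + HS. PYK10, which makes up most of this sum, was called lower in each of these 3. COBL9, a root hair gene, was called lower in HL + HS and Salt + HL + HS. In PQ + HS the other 2 tested root genes were not called. The sum was also below the control in Salt (95595 to 102459) and Salt + PQ (88922 to 99427), among other treatments. In Salt 1 of the 3 tested root genes was called higher and 1 lower. In Salt + PQ + HS the sum was 96806 to 107015 and in HS 120968 to 126026. It was above the control in Salt + PQ + HL (214929 to 225530) and PQ + HL + HS (257614 to 265279). The part of the root genes in the levels of the late genes was not tested.

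In 6 further treatments the pathway split at the flavonol branch, with all 4 tested early genes called higher and 4 or 5 late genes called lower, although the early genes turned in HL + HS, and CHI in Salt + HL + HS, under equal totals. Paraquat alone gave the largest change of the early genes after HL. CHS had 47526, 39416 and 46629.5 normalised counts in the libraries labelled PQ and FLS1 had 14980, 12899 and 13517, all above every control library. In the same libraries DFR had 207, 181 and 153 and UGT79B1 93.5, 84.4 and 56.0, all below every control library. The calls were 4 early genes higher and 4 late genes lower, where 40.2% of all genes were higher and 39.0% lower. The log2 fold change was 2.15 for FLS1 (standard error 0.081, limma adjusted p = 1.26e-26) and -1.53 for DFR (standard error 0.22, limma adjusted p = 3.54e-08). TT19 was not called in PQ, at 338, 344 and 307 normalised counts and a log2 fold change of -0.07 (standard error 0.16). Under equal totals it was -0.36 and called lower (limma adjusted p = 0.0422).

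Salt and Salt + PQ gave a like picture with a smaller change of the early genes. CHS had 30217, 29801 and 29122 normalised counts in Salt and 23468, 25474 and 25767 in Salt + PQ. DFR had 83.2, 103 and 127 in Salt and 124, 74.9 and 113 in Salt + PQ. In both treatments the 4 early genes were called higher and all 5 late genes lower. The background was 40.5% higher and 39.1% lower in Salt, and 40.2% higher and 38.5% lower in Salt + PQ. F3'H moved least among the early genes in Salt, by 0.28 on the log2 scale (standard error 0.091) and a limma adjusted p of 0.00552, which was 0.0611 without Control replicate 1 and 0.402 under equal totals. ELIP1 was 16.0 times its control mean in Salt, 48.9 times in PQ and 11.8 times in Salt + PQ, and HSP101 55.2, 142 and 35.5 times. Their part in these results was not tested.

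The FLS1 to DFR ratio was highest in PQ + HS. FLS1 had 8659, 9733 and 9223 normalised counts there and CHS 27051, 28349 and 26759, above the control. DFR had 40.2, 32.7 and 39.0 and LDOX 31.4, 32.7 and 27.3, below the control. UGT79B1 had 20.1, 2.52 and 3.90, of which the last 2 lie near the limit of 3 reads. All 4 early genes were called higher, by log2 fold changes of 0.83 (F3'H) to 1.57 (FLS1). All 5 late genes were called lower, by -1.12 (UGT75C1) to -4.86 (UGT79B1, a fitted value that depends on the pseudocount and was -5.65 without replicate 1 of the treatments). The background was 42.1% higher and 42.1% lower. The fit put DFR 13.6-fold below the control (standard error 0.22 on the log2 scale, limma adjusted p = 6.33e-20). F3'H lost its call under equal totals (limma adjusted p = 0.0635).

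In HL + HS and Salt + HL + HS the same split was called with the authors' size factors, 4 early genes higher and 5 late genes lower in each, but equal totals turned CHS, CHI, F3'H and FLS1 in HL + HS and CHI in Salt + HL + HS. CHS had 14775, 15576 and 15622 normalised counts in HL + HS and 20434, 20738 and 21963 in Salt + HL + HS. Under equal totals CHS, CHI, F3'H and FLS1 stood at -0.46, -0.44, -0.56 and -0.04 in HL + HS, where the median of all genes was -0.87. CHI stood at -0.05 in Salt + HL + HS and CHS, at 0.03, was no longer called there. Quantile normalization put CHS at -0.22 in HL + HS. The late genes were lower with each scaling, with DFR at 64.0, 71.4 and 67.2 and TT19 at 33.7, 39.7 and 39.7 normalised counts in HL + HS. The background was 42.7% higher and 43.2% lower in HL + HS, and 42.9% higher and 43.0% lower in Salt + HL + HS.

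Salt + PQ + HS differed in F3'H. CHS, CHI and FLS1 were called higher there, the first 2 with a direction that turned under equal totals, and F3'H was called lower. F3'H had 473, 544 and 382 normalised counts and a log2 fold change of -0.27 (standard error 0.091). Its limma adjusted p of 0.00578 was 0.156 without replicate 3 of the treatments and 0.0727 under quantile normalization. In all, 3 members were higher and 6 lower, against 42.2% and 42.4% of all genes. The log2 fold change of CHS of 0.47 turned to -0.32 and that of CHI of 0.70 to -0.09 under equal totals, and CHS turned to -0.13 under quantile normalization. LDOX had 29.9, 45.3 and 7.26 normalised counts, its lowest group mean, and a log2 fold change of -4.09, which was -3.36 without replicate 3 of the treatments.

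**Figure D4:**
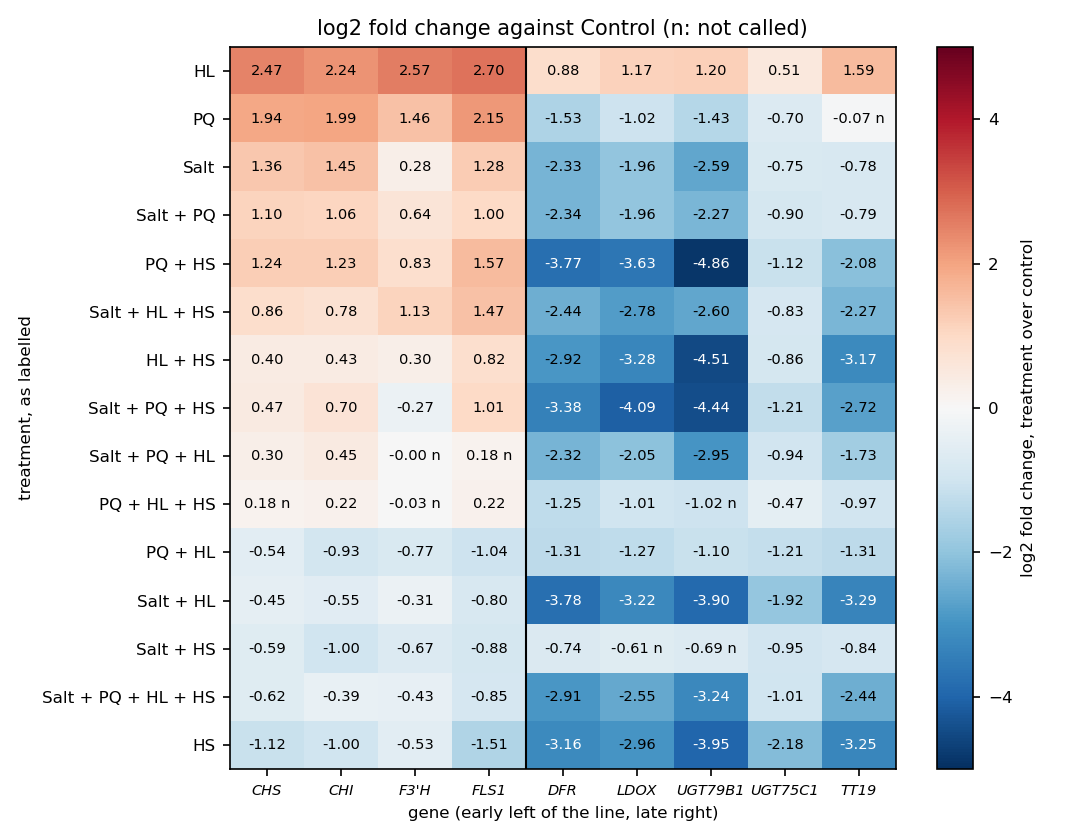
Log2 fold change against the control of the 9 tested members in the 15 treatments as labelled, where red is higher, blue lower and n marks a value that was not called. HL is red for all 9 members, and the late genes are blue or pale in each other treatment. The red of CHS, CHI, F3'H and FLS1 in HL + HS, of CHS and CHI in Salt + PQ + HS and of CHI in Salt + HL + HS turns when libraries are scaled to the same total.

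In 5 treatments no member was called higher. In HS, CHS, CHI, FLS1 and UGT75C1 had their lowest group means. CHS had 4721, 4894 and 6539 normalised counts there and FLS1 had 927, 961 and 1450.3. DFR had 71.2, 51.0 and 50.9 and TT19 34.8, 36.0 and 35.7. All 9 tested members were called lower in HS, where 37.2% of all genes were higher and 34.2% lower. The log2 fold change was -1.12 for CHS (standard error 0.076, limma adjusted p = 3.45e-17) and -3.25 for TT19 (standard error 0.16, limma adjusted p = 1.12e-21). F3H had 0, 0.879 and 0 normalised counts, under the limit of 3 reads.

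Salt + HL and PQ + HL, whose labels hold HL, also had all 9 members lower. CHS had 7913, 8909.6 and 8636 normalised counts in Salt + HL and 7680.3, 8148 and 8138 in PQ + HL. DFR had 45.6, 30.5 and 35.9 in Salt + HL, below every library of PQ + HL, which had 219, 187 and 221. The background was 35.8% higher and 33.5% lower in Salt + HL, and 35.9% higher and 34.4% lower in PQ + HL. The call of UGT79B1 in PQ + HL was near the threshold, at a limma adjusted p of 0.0371. It was lost without Control replicate 1, 2 or 3 (0.0789, 0.0708 and 0.057), without replicate 2 of the treatments (0.126), with a pseudocount of 0.1 (0.0592) and without the filter (0.0619). ELIP1 was 1.45 times its control mean in Salt + HL and 1.74 times in PQ + HL, and the bearing of this on the members was not tested.

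In Salt + HS the late genes lay closer to the control. DFR had 267, 343 and 328 normalised counts and LDOX 212, 277 and 275, below the control libraries in each gene. Of the 9 members, 7 were called lower, with 35.6% of all genes higher and 33.9% lower. The exceptions were LDOX (log2 fold change -0.61, standard error 0.33, limma adjusted p = 0.0929) and UGT79B1 (-0.69, standard error 0.47, limma adjusted p = 0.192). On the recovered reads both were called lower by edgeR, with adjusted p of 0.0015 and 0.00608, and by DESeq2. Limma with the compared groups alone called both lower as well (adjusted p = 1.32e-04 and 9.88e-04). LDOX was also called without replicate 3 of the treatments (limma adjusted p = 0.0171).

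The treatment with all 4 stresses in its label, Salt + PQ + HL + HS, had all 9 members lower, against 23.6% of all genes lower and 23.3% higher. CHS had 7891, 7353 and 7382 normalised counts and DFR 53.5, 69.0 and 85.8, below every control library. UGT79B1 had 18.1, 26.4 and 19.5 and fell by 3.24 on the log2 scale (standard error 0.47, limma adjusted p = 2.07e-07). The 5 heat markers summed to 1245 to 1476 normalised counts in these libraries against 1374 to 1478 in the control, with 3 of the 5 called lower, and the 2 light markers to 809.7 to 1030.3 against 1779 to 2052. Their part in the result was not tested.

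In Salt + PQ + HL and PQ + HL + HS the early genes stayed close to the control while late genes were lower. FLS1 had 3420.2, 3551 and 3563 normalised counts in Salt + PQ + HL and 3659.8, 3654 and 3540.2 in PQ + HL + HS. DFR had 86.5, 110.5 and 114 in the former and 255, 217 and 185 in the latter. CHS and CHI were called higher and all 5 late genes lower in Salt + PQ + HL, with 19.6% of all genes higher and 20.9% lower. FLS1 was not called there (limma adjusted p = 0.0772), but was without replicate 3 of the treatments (0.0203) and by edgeR (0.0415). In PQ + HL + HS the called members were CHI and FLS1, higher, and 4 late genes, lower, where 9.65% of all genes were higher and 10.1% lower. UGT79B1, at 112, 99.5 and 94.3 normalised counts, was not called there by limma (adjusted p = 0.136) and was called lower by edgeR (adjusted p = 5.04e-04). DESeq2 called it lower too (adjusted p = 1.41e-04). So did limma with the compared groups alone (standard error 0.107, adjusted p = 5.51e-05).

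Several of the calls in PQ + HL + HS were near the threshold. The limma adjusted p of FLS1 of 0.048 rose to 0.1 without replicate 1 of the treatments, to 0.153 without replicate 2, and to 0.0885, 0.126 and 0.0851 without Control replicate 1, 2 and 3. CHI lost its call without replicate 3 of the treatments (0.0559), where CHS gained one (0.0178), as it did without Control replicate 3 (0.0373). LDOX lost its own without Control replicate 2 or 3 (0.0558 and 0.0638) and without replicate 2 of the treatments (0.0738).

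Over the 15 treatments, CHI was called higher in 10 and lower in 5, CHS and FLS1 in 9 and 5, and F3'H in 7 and 6. Each of the 5 late genes was called higher in 1 treatment, HL, and lower in 12 (UGT79B1), 13 (LDOX and TT19) or 14 (DFR and UGT75C1). The 5 treatments whose labels match ELIP1, and HSP101 where the label holds HS, were picked after seeing the data. HSP101 was not checked where the label lacks HS, as in HL, where it was 65.8 times its control mean. In these 5 treatments each of the 4 early genes was higher in 3 and lower in 2. Under equal totals, though, all 4 turned in HL + HS and CHI in Salt + HL + HS. In those 5 each late gene was higher in 1 and lower in 3 or 4. Of all tested genes, 9.65 to 42.9% were called higher and 10.1 to 43.2% lower, depending on which of the 15 treatments is taken. Within the 5 picked treatments the shares were 35.6 to 42.9% higher and 33.9 to 43.2% lower.

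The members were also read beside ELIP1, with the authors' size factors. In the 8 treatments with an ELIP1 mean over 10 times that of the control, the group mean of CHS ranged from 15324 to 64481 normalised counts. In the 7 others it ranged from 5385 to 14250.5. The ranges were apart for FLS1 too, at 5494 to 20168 and 1113 to 3618. They overlapped for CHI, at 2207 to 7773 and 822 to 2241, and for F3'H, at 466 to 3328 and 328 to 558. Of the 32 pairs of a tested early gene and one of the 8 treatments, 31 were called higher and 1, F3'H in Salt + PQ + HS, lower, and under equal totals all 4 early genes turned in HL + HS, CHS and CHI in Salt + PQ + HS and CHI in Salt + HL + HS. Of the 28 pairs with the 7 others, 4 were called higher and 20 lower. Over all tested genes, 38.5 to 42.9% were called higher and 37.5 to 43.2% lower in the 8 treatments. In the 7 others, 9.65 to 37.2% were higher and 10.1 to 34.4% lower. The 4 early genes moved together (r of 0.88 to 0.98), so the pairs are not independent. DFR had group means of 37.3 to 966 in the 8 treatments and 37.35 to 313 in the 7 others. ELIP2 lay below its control mean of 1342 in HL + HS (996) and PQ + HS (1168), which are among the 8. Treatments were divided here by a measured gene, so no test was made.

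The factorial design also allows a stress to be read against another one, as labelled. HL added to Salt lowered all 9 members, with 32.6% of all genes lower, and the UGT79B1 call was lost without replicate 2 of the treatments (limma adjusted p = 0.13). HL added to PQ lowered 6, with 31.0% of all genes lower, namely the 4 early genes, TT19 and UGT75C1. FLS1 fell by 3.19 on the log2 scale from PQ to PQ + HL (standard error 0.081, limma adjusted p = 1.97e-32). The light marker ELIP1 was lower, not higher, where the label adds HL to Salt or to PQ. Its mean was 16.0 times that of the control in Salt and 1.45 times in Salt + HL. In PQ it was 48.9 times that of the control, and in PQ + HL 1.74 times. Salt added to PQ + HL + HS lowered all 9, with 26.6% of all genes lower. The 2 light markers were lower too, with sums of 1918 to 2012 normalised counts in PQ + HL + HS and 809.7 to 1030.3 in Salt + PQ + HL + HS. The heat marker HSP17.6A stood at 77.4 and 74.2 in these groups, against 161 in the control, and HSP101 at 1130 and 1138, against 1098. In each of the groups 3 of the 5 heat markers were called lower than the control and 2 were not called. The part of these markers was not tested.

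HL added to HS raised 5 members, the 4 early genes and UGT75C1, with 40.2% of all genes higher. FLS1 changed by 2.33 (standard error 0.081, limma adjusted p = 5.29e-28), and F3'H lost its call under equal totals (limma adjusted p = 0.517). DFR and TT19 differed by 0.24 and 0.08 between HS and HL + HS and were not called. Under equal totals they turned to -0.52 and -0.67 and were called lower, as were LDOX and UGT79B1 at -1.07 and -1.22, while under quantile normalization DFR and TT19 were called higher, at 0.58 and 0.38. UGT79B1, at -0.55 in the main fit, was also called lower without replicate 3 of the treatments, at -1.61. Without replicate 1 it stood at 0.11 and was not called (limma adjusted p = 0.837). HS added to HL lowered all 9, with 41.8% of all genes lower. UGT79B1 had 3.37, 6.35 and 22.9 normalised counts in HL + HS, from 2, 4 and 15 reads, below all its HL libraries. Its fitted log2 fold change was -5.71 (standard error 0.47, limma adjusted p = 1.21e-14), a value that depends on the pseudocount and was -4.66 with one of 10.

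The effect of HL differed with the other stress. The interaction, which is the change under HL with the other stress minus that without it, was called lower with Salt for all 9 members, where 39.5% of all genes were, and with PQ for 8, where 38.9% were. CHS, with a change of 2.47 under HL alone, had one of -1.81 when HL was added to Salt, an interaction of -4.28 (standard error 0.11, limma adjusted p = 1.92e-33). For FLS1 the interaction with PQ was -5.89 (standard error 0.11, limma adjusted p = 1.12e-37). That of DFR with PQ was marginal, at a limma adjusted p of 0.0486. It was lost without Control replicate 1, 2 or 3 (0.0645, 0.0752 and 0.0638) and without replicate 1, 2 or 3 of the treatments (0.0812, 0.0761 and 0.0726). Under equal totals it was -0.29 (limma adjusted p = 0.401), and it was lost as well under quantile normalization (0.0532), with a pseudocount of 0.1 (0.0527) and without the filter (0.0747). UGT79B1, the member not called with PQ (limma adjusted p = 0.235), was called lower by edgeR (0.0108) and DESeq2 (0.0101), with a pseudocount of 10 and with the compared groups alone. ELIP1 was high in Salt and PQ and low in Salt + HL and PQ + HL, and its part in these interactions was not tested.

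With HS, 7 members had a lower interaction and UGT75C1 a higher one, where 39.1% of all genes were lower and 35.5% higher. The UGT75C1 interaction of 0.81 shrank to 0.25 under equal totals and was no longer called. FLS1 lost its call without replicate 3 of the treatments (limma adjusted p = 0.109). LDOX lost its own without replicate 1 (0.0959), and UGT79B1 without replicate 1 or 2 (0.103 and 0.142). DFR was not called (limma adjusted p = 0.0587), but was called lower by edgeR (adjusted p = 0.0262) and DESeq2 (0.0307), under equal totals (-1.19), with a pseudocount of 10, with the compared groups alone and without replicate 2 of the treatments (0.0263). HSP101 was 65.8 times its control mean in HL and 16.3 times in HS, and its part in this interaction was not tested.

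The ratio of FLS1 to DFR, enzymes that compete for dihydroflavonols, sets flavonol against anthocyanin transcripts within a library and does not depend on its scaling. In the 3 control libraries it was 5.96, 6.02 and 5.97. It was highest in PQ + HS, at 215, 297 and 237, followed by Salt + PQ + HS at 117, 97.0 and 183. In HL, where both genes were higher, it was 23.3, 22.1 and 18.1. Salt + HS was the one group with every library below the control, at 5.94, 4.96 and 5.44, and PQ + HL lay just above, at 6.41, 8.30 and 7.14. These values are a description, with no test.

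**Figure D5:**
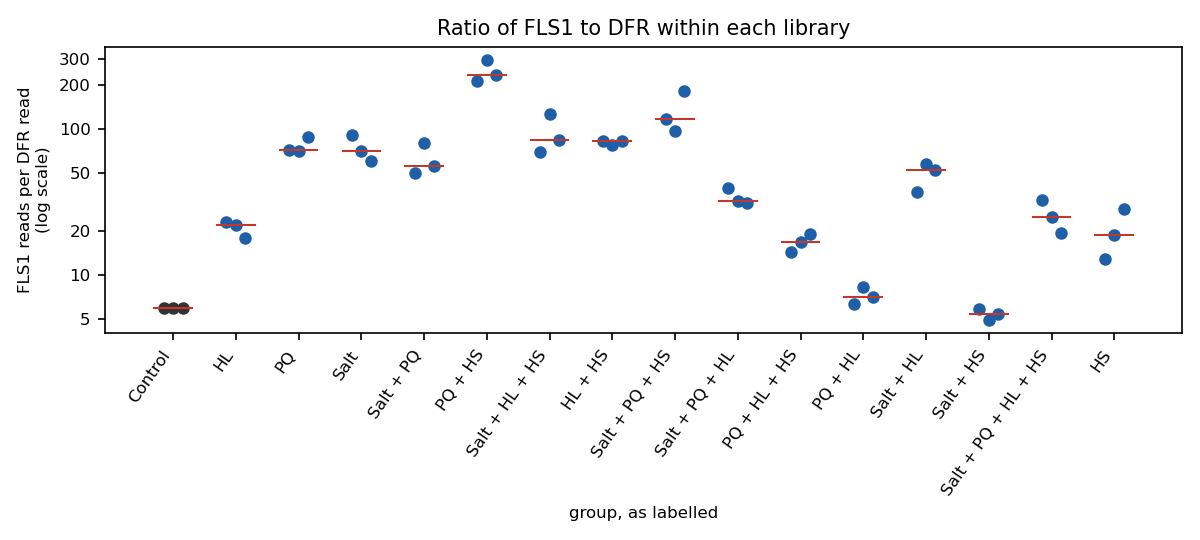
Ratio of FLS1 to DFR in each of the 48 libraries on a log scale (points), with the median of each group as a red line. The control libraries lie at 5.96 to 6.02, those of PQ + HS at 215 to 297, and those of Salt + HS at 4.96 to 5.94.

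Across the 16 group means of log2 values, the early genes followed each other closely. Pearson's r was 0.88 to 0.98 over the 6 pairs of CHS, CHI, F3'H and FLS1. It was 0.73 to 0.98 over the 10 pairs of late genes and 0.15 to 0.63 over the 20 pairs of an early with a late gene. The points share libraries and size factors, so these are descriptions. The 5 genes outside the pathway lists most like the mean pattern of the members, among 19172 searched over the 16 groups, were TMT2 (r = 0.94), AT4G08570 (0.94), NPQ4 (0.93), AT3G18280 (0.92) and bZIP23 (0.91).

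The order of the 16 group means showed where neighbours could not be told apart by their library ranges. Of the 15 neighbouring pairs, 7 overlapped for CHS, 4 for CHI, 8 for F3'H, 6 for FLS1, 11 for DFR, 10 for LDOX, UGT75C1 and TT19, and 13 for UGT79B1 and F3H. The mean of the highest group was 12.0 times that of the lowest for CHS, 18.1 times for FLS1, 25.9 times for DFR and 54.4 times for UGT79B1, whose lowest group lies near the limit of 3 reads. UGT75C1 had the narrowest range of the 9 tested members, at 6.57 times.

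Genes that feed the pathway moved in part with the early members. PAL1, a phenylalanine ammonia-lyase, had a mean of 14402 ± 706 normalised counts in the control, 46342 ± 1014 in HL and 6944 ± 557 in HS (SD, n = 3). C4H, the next enzyme, had 16930 ± 655 in the control, 67895 ± 935 in HL and 14269 ± 191 in HS. In HL the log2 fold change was 0.85 for PAL2, 0.67 for PAL4 and 0.74 for 4CL1, all called higher, and -1.38 for PAL3, called lower. Of 8 entry genes, 6 were higher and 1 lower in HL (median 0.80), and 7 lower in HS (median -0.70). Over all tested genes 38.5% were higher and 37.5% lower in HL (median -0.0021), and 37.2% higher and 34.2% lower in HS (median 0.011).

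Of 17 tested genes among 20 other flavonoid genes, which modify or carry the products, 12 were higher and 2 lower in HL (median log2 fold change 1.12). In PQ 13 were higher and 1 lower (median 1.01), and in HS 5 were higher and 11 lower (median -0.35). The lignin branch, which draws on the same precursors, had all 7 genes higher in HL (median 0.83) and 6 of 7 lower in HS (median -0.22). Of 14 tested regulators, 9 were higher and 3 lower in HL (median 1.17), and 5 higher and 8 lower in HS (median -0.17). The regulators were not split by whether they raise or lower the pathway. Over all tested genes the shares were 38.5% higher and 37.5% lower in HL, 40.2% and 39.0% in PQ, and 37.2% and 34.2% in HS.

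The seed coat is another site of flavonoid synthesis. The 4 seed coat genes of the flavonoid pathway summed to between 7.92 and 109 normalised counts over the libraries. BAN, which defines the proanthocyanidin branch, did not exceed 5.93 and TT2, its MYB factor, did not exceed 4.58 in any library. TT12, a transporter of the same branch, had a mean of 1.86 in the control, 61.5 in Salt and 54.1 in Salt + PQ, and was called higher in both.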

How the data were processed

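RNA of 48 Arabidopsis seedling samples was read as single-end libraries. Per the labels and the submitters' processing notes, the authors checked reads with FastQC 0.11.7, aligned them to build TAIR10 with STAR 2.4.0.1 and normalised gene counts with DESeq2 1.20.0. The deposited table holds these normalised counts, a signal that the authors obtained by dividing each library's counts by 1 size factor. Dividing by the smallest step gave whole reads for 100% of values (tolerance 1e-06), and size factors of 0.594 to 1.34. Reads per gene were counted with STAR. Whether the counting used strand is not given in the sources used here.

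Genes with a mean under 10 normalised counts were left out, which kept 21536 of 32833 genes. A single limma 3.58.1 model (R 4.3.3, with a mean-variance trend) of log2(normalised count + 1) was fitted to the 48 libraries with 16 group means, and p-values were adjusted by Benjamini-Hochberg over all tested genes of a comparison. Fold changes are on this log2 scale, which understates the change of low genes. Each gene has a single estimate of spread over the 16 groups. For UGT79B1 and LDOX, groups with few reads enter that estimate. Samples were grouped by their labels. The methods call the 3 samples of a group biological replicates. The alternatives were pseudocounts of 0.1 and 10, no filter, the compared groups alone, quantile normalization, libraries brought to equal totals, a replicate block, leaving out each replicate, and edgeR 4.0.16 and DESeq2 1.42.0 on the recovered reads. The limit to treatments whose labels match ELIP1, and HSP101 where the label holds HS, was added after seeing the data. The script was tested on simulated data. The members, lists and tests were chosen with earlier results of these data known. All 10 members were named. Of other pathway genes, at most 6 were named, the first tested ones in the order of the list, and marker genes were named beside results they touch. Tables and figures were made with Python 3.11.15, numpy 2.4.6, pandas 2.3.3 and matplotlib 3.10.9. Promoter windows came from RefSeq, build TAIR10.1.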

Additional observations from a re-analysis of the deposited data

Results flagged for a closer look

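The change of the members under HL differed with the other stress in the label, by a limma test of the interaction across all genes. It differed for 9 of the 9 tested members with and without Salt, all lower, where 39.5% of all genes had a lower interaction. It differed for 8 with and without PQ, all lower, where 38.9% of all genes did. It differed for 8 with and without HS, of which 7 were lower and 1 higher, where 39.1% of all genes were lower and 35.5% higher, and the higher one, UGT75C1, was not called under equal totals. ELIP1 did not follow the HL labels in Salt, PQ, Salt + HL and PQ + HL. HSP101 was 65.8 times its control mean in HL, which enters each of these interactions without HS in its label. The part of these markers was not tested.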

How the results depend on the processing

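Of 585 alternative values of the 39 counts of called members, 573 stayed within 1.5 times the reported count. Of 3105 alternative values of 207 member fold changes, 3015 kept direction and call, 44 lost the call, 35 gained it and 11 turned. Scaling to the same total gave 1 member higher instead of 3 in Salt + PQ + HS, 0 higher instead of 4 and 8 lower instead of 5 in HL + HS, 2 higher instead of 4 in Salt + HL + HS, and 0 instead of 1 with a higher interaction of HL with HS. This scaling turned CHS to -0.32 and CHI to -0.088 in Salt + PQ + HS, CHS to -0.46, CHI to -0.44, F3'H to -0.56 and FLS1 to -0.041 in HL + HS, CHI to -0.054 in Salt + HL + HS, and DFR to -0.52 and TT19 to -0.67 for HL added to HS. This scaling moved the median of all genes too, to -0.87 in HL + HS. Which scaling lies nearer to the RNA amounts was not tested. Quantile normalization turned CHS to -0.13 in Salt + PQ + HS and to -0.22 in HL + HS. In PQ + HL + HS, 1 member was higher instead of 2 with a pseudocount of 0.1, without the filter and with DESeq2, and 1 to 2 when a replicate was left out. The cause was not tested. Samples with the same replicate number did not deviate together (mean correlation -0.00029 over 360 pairs, from -0.258 to 0.134), so the numbers do not pair them. With a replicate block, DFR lost its interaction of HL with PQ (limma adjusted p = 0.0503), which left 7 members instead of 8, and no other member call changed. The counts of F3H were too low to test.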
